A study of Mus musculus with 6 samples.

Results

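The 10 genes described here encode the inflammasome and the interleukin-1 (IL-1) pathway it feeds: Nlrp3, Nlrc4, Casp1, Pycard, Gsdmd, Il1b, Il18, Il1r1, Il1rn and Myd88. They were taken by gene symbol from a table of 45777 genes, and all 10 were present. All 10 also passed the filter on low counts, an average of 10 counts or more per library, which 18328 genes passed. RNA was sequenced from whole hearts of female BALB/c nude mice (CAnN.Cg-Foxn1nu/Crl), 6 weeks old in the labels. Every mouse carried a xenograft of MDA-MB-231, a human breast cancer cell line, and this includes the Control mice, which received neither agent. Mice were treated for 3 weeks with ginsenoside Rh2, a ginseng saponin, at 20 or 30 mg/kg, with doxorubicin (Dox), an anthracycline that harms the heart, or with both. Dox was given at 2 mg/kg a dose, to a cumulative 22 mg/kg. There was 1 library a group: Control, Dox, each Rh2 dose alone (labelled Rh2-20 mg/kg and Rh2-30 mg/kg) and each dose with Dox. These last 4 are written below as Rh2-20, Rh2-30, Rh2-20 + Dox and Rh2-30 + Dox. Each library pooled the hearts of 5 mice, so the spread between mice was not measured. No pair of libraries has a replicate check. Nude mice lack a thymus and so most T cells, while macrophages, monocytes and neutrophils remain.

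An inflammasome forms when a sensor such as NLRP3 or NLRC4 meets a danger signal and, through the adaptor ASC (the product of Pycard), gathers and activates caspase-1. Caspase-1 cuts the precursors of IL-1β and IL-18 into active cytokines and cuts gasdermin D, whose free end forms pores in the cell membrane. IL-1β then binds IL-1 receptor 1, which signals through MyD88 to NF-kB, and the antagonist encoded by Il1rn blocks that receptor. In the heart, macrophages, fibroblasts, endothelial cells and cardiomyocytes can carry parts of this pathway. Its main steps are cuts of proteins, which RNA levels do not measure.

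The promoters of the 5 genes past 2-fold in at least 1 of the 9 pairs compared are shown to place them in the genome. Each has 250 bases before an annotated start on the gene's own strand, credited to RefSeq on GRCm38.p6. Il1b had the widest range of all 10 genes between libraries, and Il18, Casp1 and Nlrc4 were all lowest in the Rh2-30 + Dox library. By CPM, 4 of the 10 genes were lowest in that library, as were 24.0% of all tested genes. In Rh2-30, 3 of the 10 were highest, as were 26.1% of all tested genes.
Il1b, chr2:129371140-129371389, minus strand: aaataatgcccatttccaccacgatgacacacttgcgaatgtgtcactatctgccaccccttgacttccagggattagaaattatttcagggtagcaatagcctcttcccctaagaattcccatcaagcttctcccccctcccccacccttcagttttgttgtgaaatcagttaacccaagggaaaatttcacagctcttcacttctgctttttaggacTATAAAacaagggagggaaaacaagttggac
Il18, chr9:50554450-50554699, plus strand: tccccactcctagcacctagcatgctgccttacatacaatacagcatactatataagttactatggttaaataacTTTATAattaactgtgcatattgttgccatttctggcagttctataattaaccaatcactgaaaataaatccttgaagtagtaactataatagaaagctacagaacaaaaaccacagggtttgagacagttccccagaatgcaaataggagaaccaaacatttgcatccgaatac
Casp1, chr9:5298267-5298516, plus strand: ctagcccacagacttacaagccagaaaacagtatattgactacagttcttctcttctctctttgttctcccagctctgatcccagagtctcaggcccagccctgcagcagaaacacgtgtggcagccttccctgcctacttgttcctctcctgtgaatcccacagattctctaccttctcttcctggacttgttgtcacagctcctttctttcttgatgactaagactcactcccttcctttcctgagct
Nlrc4, chr17:74459109-74459358, minus strand: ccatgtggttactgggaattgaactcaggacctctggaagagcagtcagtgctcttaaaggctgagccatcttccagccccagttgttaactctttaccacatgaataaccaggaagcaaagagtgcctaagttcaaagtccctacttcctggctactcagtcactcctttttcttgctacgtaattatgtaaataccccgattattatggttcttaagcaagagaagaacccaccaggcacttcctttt
Il1rn, chr2:24345121-24345370, plus strand: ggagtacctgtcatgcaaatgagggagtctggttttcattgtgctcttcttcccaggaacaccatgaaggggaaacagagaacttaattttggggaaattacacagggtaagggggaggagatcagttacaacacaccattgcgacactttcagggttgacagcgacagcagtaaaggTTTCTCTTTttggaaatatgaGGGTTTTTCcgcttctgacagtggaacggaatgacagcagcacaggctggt
Capitals mark motif matches, searched on both strands: the TATA box as TATAAA, a form of the NF-kB site as GGGNNTTTC, the AP-1 site as TGANTCA, the PU.1 site as GAGGAAGT and the site of interferon regulatory factors as AAANNGAAA. Of 32851 promoter windows of this length, 12.4% held the TATA letters, 3.72% the NF-kB form, 6.75% the AP-1 form, 2.44% the PU.1 form and 9.37% the interferon regulatory factor form. The table gave 13 windows for 9 of the 10 genes, with no entry for Gsdmd. The Il1b window held TATAAA at 31 bases before the start. The Il1rn window printed here lies within the gene and held an NF-kB form and an interferon regulatory factor form. The Il1rn window before the first base of the gene, chr2:24336610-24336859, held the AP-1 form, and a further Il1rn window held no motif. A window of Nlrp3 and that of Myd88 each held an interferon regulatory factor form, and another Nlrp3 window held no motif. Pycard held the PU.1 form, and the Il18 window printed here and that of Myd88 held TATA letters. No motif was found in the windows of Casp1, Nlrc4 and Il1r1, which says only that these letters are not there.

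The libraries held 86164411 to 90621002 counts, an even depth. Markers of cardiomyocytes were abundant in every library, at a summed 85900 to 116089 CPM (counts scaled to library size, which TMM corrects for unequal composition). Other marker lists moved between libraries. Macrophage markers (10 genes, none at 0) summed to 321 CPM in Rh2-30 + Dox and to 578 CPM in Rh2-30. Fibroblast markers (7 genes, none at 0) summed to 978 CPM and 2437 CPM in the same libraries. Neutrophil markers (9 genes) ran from 16.0 CPM in Control, with 3 of them at 0 there, to 47.5 CPM in Rh2-20 + Dox. Atrial markers (4 genes) ran from 45.7 CPM in Control to 1662 CPM in Rh2-30, with 75.3 CPM in Rh2-30 + Dox. The atrial gene Myl7 had 56 counts in Control, 52896 in Rh2-30 and 19 in Rh2-30 + Dox, so the libraries differed widely in atrial RNA. Erythroid markers (5 genes) ran from 1657 CPM in Rh2-30 + Dox to 10498 CPM in Dox. The part of these shifts in the results was not tested. In heart tissue fewer cells of a type cannot be told apart from less RNA per cell.

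**Figure D1:**
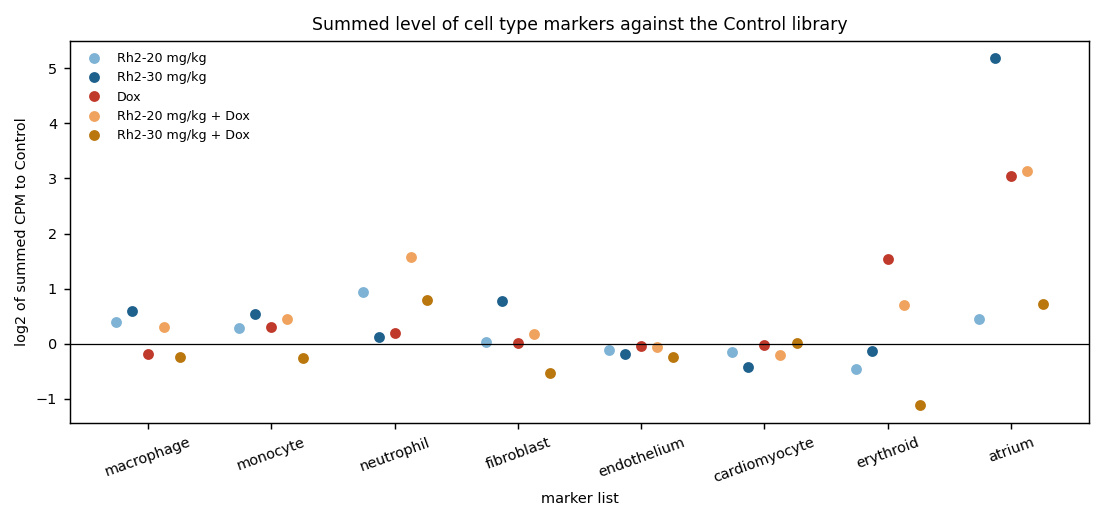
Log2 of the summed CPM of each marker list against the Control library (y axis) for 8 lists (x axis), with 1 point for each of the 5 treated libraries. The atrial list spreads furthest, and Rh2-30 + Dox lies lowest in the macrophage, monocyte, fibroblast, endothelium and erythroid lists.

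Levels were compared between genes as FPKM, the authors' values per kilobase of transcript, scaled to the mapped fragments of each library. Gsdmd, the pore-forming gasdermin D, stood highest in every library at 10.5 to 14.1 FPKM. Il1r1, the signalling receptor, followed at 5.88 to 9.75 FPKM, and Casp1, the protease, at 2.78 to 7.16 FPKM. Their ranges overlapped, and Casp1 stood above Il1r1 only in Control and in Dox. Myd88, the adaptor of the receptor, lay at 3.15 to 4.05 FPKM.
The cytokine Il1b lay lower, at 0.552 to 2.33 FPKM. The sensors Nlrp3 (0.439 to 0.811 FPKM) and Nlrc4 (0.296 to 0.804 FPKM) and the cytokine Il18 (0.247 to 0.951 FPKM) had overlapping ranges. Pycard stayed at 0.231 to 0.512 FPKM, and Il1rn was lowest in every library at 0.0333 to 0.108 FPKM. Gsdmd, Il1r1 and Casp1 together held 77.2% to 79.4% of the summed FPKM of the 10 genes in every library. That sum was 34.2 to 36.7 FPKM in 5 libraries and 24.6 FPKM in Rh2-30 + Dox.

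**Figure D2:**
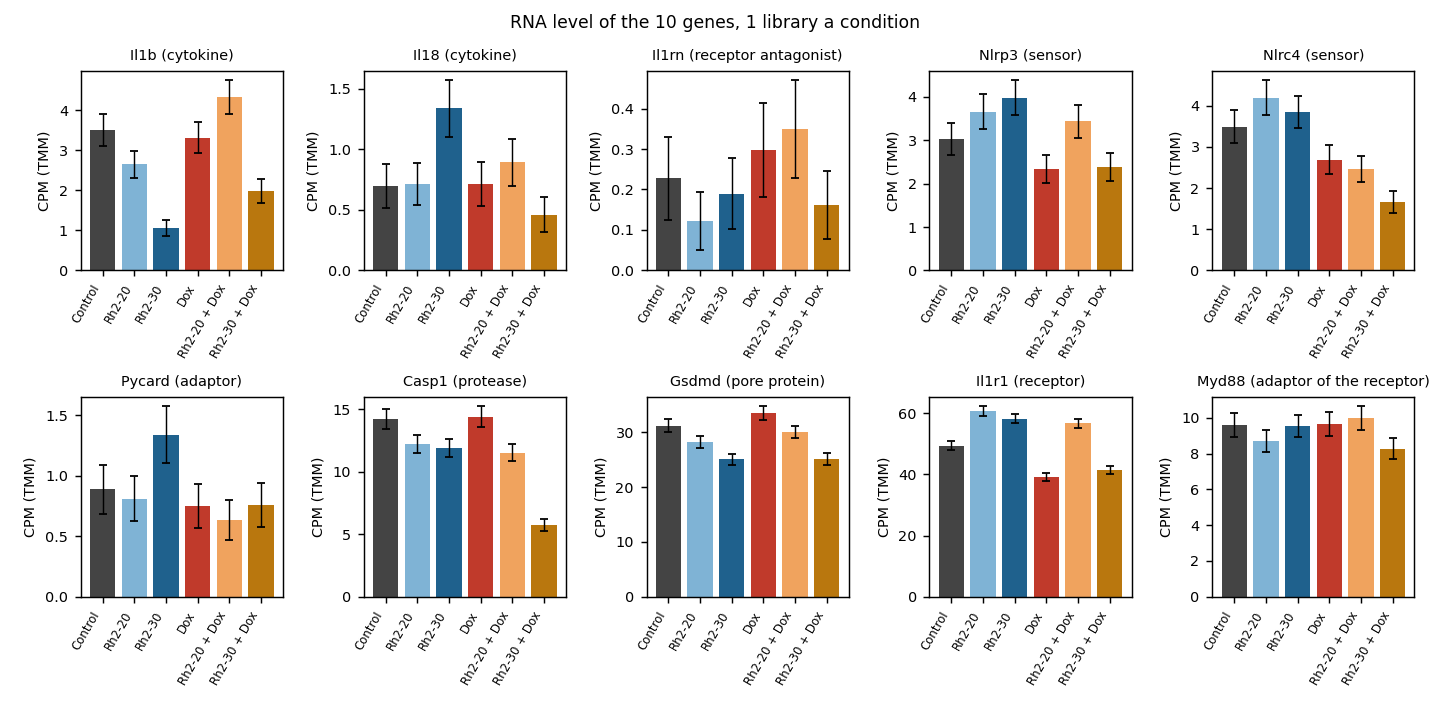
TMM-scaled CPM (y axis, from 0, a separate scale for each gene) of the 10 genes in the 6 libraries (x axis). Bars are single libraries and error bars the approximate 95% counting error, so they hold no spread between mice. Il1b is lowest in Rh2-30, and Casp1 and Nlrc4 are lowest in Rh2-30 + Dox.

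Of the cytokines, Il1b had the widest spread. Il1b (chr2:129364569-129371164) had 292 counts in Control, 238 in Rh2-20, 100 in Rh2-30, 278 in Dox, 396 in Rh2-20 + Dox and 173 in Rh2-30 + Dox. The library with 30 mg/kg Rh2 was therefore lower than the library with 20 mg/kg both without Dox and with it, and Dox alone was close to Control. The log2 ratio of Rh2-30 to Control was -1.73, which is 3.31-fold lower, with a 95% counting interval of -2.08 to -1.40. A wider interval that adds the common dispersion of the 6 libraries ran from -2.48 to -0.98. Against Control, Rh2-30 + Dox was at -0.81 (wider interval -1.54 to -0.09) and Dox at -0.08 (-0.80 to 0.63).
At the 30 mg/kg dose the library with Dox was above the library without it, at 0.91 (0.15 to 1.68), and at 20 mg/kg it was at 0.71 (-0.01 to 1.42). Macrophage markers stood at their highest in the Rh2-30 library, where Il1b was lowest.

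Il18 (chr9:50554700-50581841) encodes the other cytokine that caspase-1 activates. It had 58 counts in Control, 64 in Rh2-20, 127 in Rh2-30, 60 in Dox, 82 in Rh2-20 + Dox and 40 in Rh2-30 + Dox. Rh2-30 stood highest and Rh2-30 + Dox lowest, so Il18 was high in the library where Il1b was low. The log2 ratio of Rh2-30 to Control was 0.94 (wider interval 0.13 to 1.75), just short of 2-fold. The ratio of Rh2-30 + Dox to Rh2-30 was -1.53 (-2.38 to -0.68), a 2.89-fold lower level. Across the 6 libraries Il18 ran with the fibroblast marker sum (Pearson r = 0.99 of log2 CPM, n = 6), which was also highest in Rh2-30 and lowest in Rh2-30 + Dox. This was not particular to fibroblasts. The r was 0.97 with the epidermis sum, 0.90 with monocytes, 0.83 with macrophages, 0.80 with the atrial sum and -0.91 with cardiomyocytes. With the remaining lists it lay between -0.27 and 0.33.

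Il1rn (chr2:24336860-24351491), the receptor antagonist, had few counts. Its counts were 19 in Control, 11 in Rh2-20, 18 in Rh2-30, 25 in Dox, 32 in Rh2-20 + Dox and 14 in Rh2-30 + Dox. The largest gap was between the libraries with 20 mg/kg Rh2, where the log2 ratio with Dox to without was 1.47 (wider interval 0.29 to 2.66). No other pair had an interval of Il1rn without 0. Within libraries the FPKM ratio of Il1b to Il1rn ran from 8.84 in Rh2-30 to 45.0 in Rh2-20, and it was 28.0 in Control and 18.8 in Dox.

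The sensors were lower in the libraries with Dox than at the same Rh2 dose without it. Nlrc4 (chr17:74426255-74459144), whose protein senses bacterial flagellin and secretion systems together with NAIP proteins, had 291 counts in Control, 378 in Rh2-20 and 365 in Rh2-30. With Dox it had 226 counts in Dox, 226 in Rh2-20 + Dox and 145 in Rh2-30 + Dox. The 3 libraries with Dox (1.67 to 2.69 CPM) thus did not overlap the 3 without (3.49 to 4.20 CPM). The log2 difference was -0.76 (SE 0.22), lower in 3 of 3 pairs of libraries with the same Rh2 dose. It did not pass the test, with an unadjusted p of 0.00995 and a Benjamini-Hochberg adjusted p of 0.344 in edgeR's quasi-likelihood test over all 18328 genes.
Rh2-30 + Dox was past 2-fold below Control, at -1.06 (wider interval -1.80 to -0.33). By Rh2 dose the log2 ratio with Dox to without was -0.38 with no Rh2, -0.77 at 20 mg/kg and -1.20 at 30 mg/kg. These 3 values have wider intervals of -1.10 to 0.34, -1.48 to -0.05 and -1.93 to -0.47, which overlap.

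Nlrp3 (chr11:59541569-59566955), the sensor of potassium loss and cell damage, had 253 counts in Control, 330 in Rh2-20, 378 in Rh2-30, 197 in Dox, 315 in Rh2-20 + Dox and 208 in Rh2-30 + Dox. Each library with Dox was lower than its Rh2-matched library, but the groups overlapped, since Rh2-20 + Dox (3.44 CPM) stood above Control (3.04 CPM). The log2 difference of libraries with Dox was -0.39 (SE 0.21, adjusted p = 0.592, edgeR). Nlrp3 ran with the macrophage marker sum across libraries (Pearson r = 0.98, n = 6), with an r of 0.77 for fibroblasts and -0.82 for cardiomyocytes. It was 0.70 for epidermis, 0.67 for monocytes and between -0.17 and 0.33 for the remaining lists. The part of macrophage content in these values was not tested.

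Of the adaptor, protease and pore genes, Casp1 moved furthest. Casp1 (chr9:5298517-5307281) had 1185 counts in Control, 1097 in Rh2-20, 1127 in Rh2-30, 1210 in Dox, 1055 in Rh2-20 + Dox and 497 in Rh2-30 + Dox. A single library, Rh2-30 + Dox, stood apart, and the other 5 lay between 1055 and 1210 counts. Its log2 ratio was -1.31 to Control (wider interval -2.01 to -0.62), -1.33 to Dox (-2.02 to -0.64) and -1.05 to Rh2-30 (-1.75 to -0.36). These ratios share that library. Casp1 was also lower in all 4 libraries with Rh2 (5.72 to 12.2 CPM) than in the 2 without (14.2 and 14.4 CPM). The log2 difference of -0.50 (SE 0.28) had an adjusted p of 0.622 in edgeR's test. Across the 6 libraries the Pearson r of Casp1 was 0.80 with the endothelial marker sum and 0.70 with the erythroid sum (n = 6). It was 0.63 for monocytes, 0.58 for fibroblasts and between -0.34 and 0.36 for the remaining lists.
Macrophage, monocyte, fibroblast, endothelial and erythroid marker sums were at their lowest in Rh2-30 + Dox too. The ratio of that library to Control was 0.844 for the macrophage sum, 0.834 for the monocyte sum, 0.689 for the fibroblast sum, 0.846 for the endothelial sum and 0.460 for the erythroid sum, and 0.402 for Casp1. The median log2 ratio of single markers there was -0.51 for macrophages, -0.34 for monocytes and -0.68 for fibroblasts. It was -0.26 for endothelium and -1.10 for the erythroid list. The lowest single marker of each list, in the same order, was at -1.07, -0.89, -1.59, -0.63 and -1.85. The part of these shifts in the Casp1 value was not tested.

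Pycard (chr7:127991373-127993867), which encodes the adaptor ASC, had 74 counts in Control, 73 in Rh2-20, 127 in Rh2-30, 63 in Dox, 58 in Rh2-20 + Dox and 66 in Rh2-30 + Dox. The 3 libraries with Dox (0.633 to 0.759 CPM) lay below the 3 without (0.811 to 1.34 CPM), with a log2 difference of -0.50 (SE 0.29, adjusted p = 0.600, edgeR). The FPKM ratio of Casp1 to Pycard was 10.7 in Rh2-30 + Dox and 12.6 in Rh2-30, against 21.3 to 27.4 in the other 4 libraries.
Gsdmd (chr15:75862144-75867408) had 2599 counts in Control, 2550 in Rh2-20, 2379 in Rh2-30, 2814 in Dox, 2756 in Rh2-20 + Dox and 2184 in Rh2-30 + Dox. Its CPM was lower in all 4 libraries with Rh2 (25.1 to 30.1) than in the 2 without (31.2 and 33.5). The log2 difference was -0.25 (SE 0.11, adjusted p = 0.572, edgeR). The endothelial marker sum split the same way, at 1504 to 1717 CPM with Rh2 and 1735 and 1778 CPM without. Across the 6 libraries Gsdmd had a Pearson r of 0.93 with that sum and 0.81 with the erythroid sum (n = 6). For the remaining lists r lay between -0.34 and 0.46. The part of these shifts in the Gsdmd values was not tested. The FPKM ratio of Gsdmd to Casp1 was 1.81 to 2.23 in 5 libraries and 3.76 in Rh2-30 + Dox. Both genes lay below Control there, the pore gene by less (log2 ratio -0.31) than the protease gene (-1.31).

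Il1r1 (chr1:40222480-40316201), the receptor for IL-1, had 4112 counts in Control, 5457 in Rh2-20, 5522 in Rh2-30, 3294 in Dox, 5198 in Rh2-20 + Dox and 3609 in Rh2-30 + Dox. It was lowest in Dox and highest, in CPM, in Rh2-20, a 1.55-fold range. Its log2 difference was -0.29 (SE 0.16, adjusted p = 0.588) with Dox and 0.30 (SE 0.14, adjusted p = 0.577) with Rh2 in edgeR's test. Its level ran with that of Nlrp3 across libraries (Pearson r = 0.98, n = 6), the highest of the 45 pairs among the 10 genes. It also ran with the macrophage marker sum (r = 0.93), with an r of 0.63 for fibroblasts and -0.72 for cardiomyocytes. For monocytes r was 0.59, for epidermis 0.54 and for the remaining lists between -0.22 and 0.33.
Myd88 (chr9:119335934-119340018) had 802 counts in Control, 785 in Rh2-20, 907 in Rh2-30, 812 in Dox, 916 in Rh2-20 + Dox and 720 in Rh2-30 + Dox. Its 1.21-fold range in CPM was the narrowest of the 10 genes, and its SD of log2 CPM lay at percentile 12.4 of all tested genes. The SD of Il1b lay at percentile 89.4.

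Beside each count of the 10 genes past 2-fold stands the share of all tested genes past 2-fold in the same pair. Against Control, which these 5 comparisons share, the count of the 10 genes past 2-fold was 0 for Rh2-20 (6.14%), 1 for Rh2-30 (10.1%), 0 for Dox (9.01%), 0 for Rh2-20 + Dox (8.75%) and 2 for Rh2-30 + Dox (10.9%). They were Il1b in Rh2-30, and Casp1 and Nlrc4 in Rh2-30 + Dox, and all of these were lower. All 10 genes lay below Control in Rh2-30 + Dox, with a median log2 ratio of -0.41 against -0.01 for all tested genes. In Dox alone 5 lay above Control and 5 below, with a median of -0.04.
Against Dox, Rh2-20 + Dox had 0 of the 10 genes past 2-fold (6.51%) and Rh2-30 + Dox had 1, Casp1 (10.1%). Against the library with the same Rh2 dose and no Dox, Rh2-20 + Dox had 1, Il1rn, which was higher (6.96%). Rh2-30 + Dox had 3, Casp1, Nlrc4 and Il18, all lower (14.6%). The atrial marker sum of this pair was 75.3 CPM with Dox and 1662 CPM without. Past 2-fold lower in the same pair were 7 of 10 macrophage markers (median log2 ratio -1.35) and 5 of 7 fibroblast markers (median -1.35). Of 6 monocyte markers, 3 were past 2-fold lower and 1 higher. Cardiomyocyte markers had a median of 0.60. The part of these shifts in the ratios of the 3 genes was not tested. The wider interval lay off 0 for 15 of the 90 ratios, and the counting interval for 54. Intervals were computed for the listed genes only, so no share of all tested genes stands beside these counts. The 90 ratios reuse the same 6 libraries, and 6 of the 15 came from Rh2-30 + Dox against Rh2-30.

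**Figure D3:**
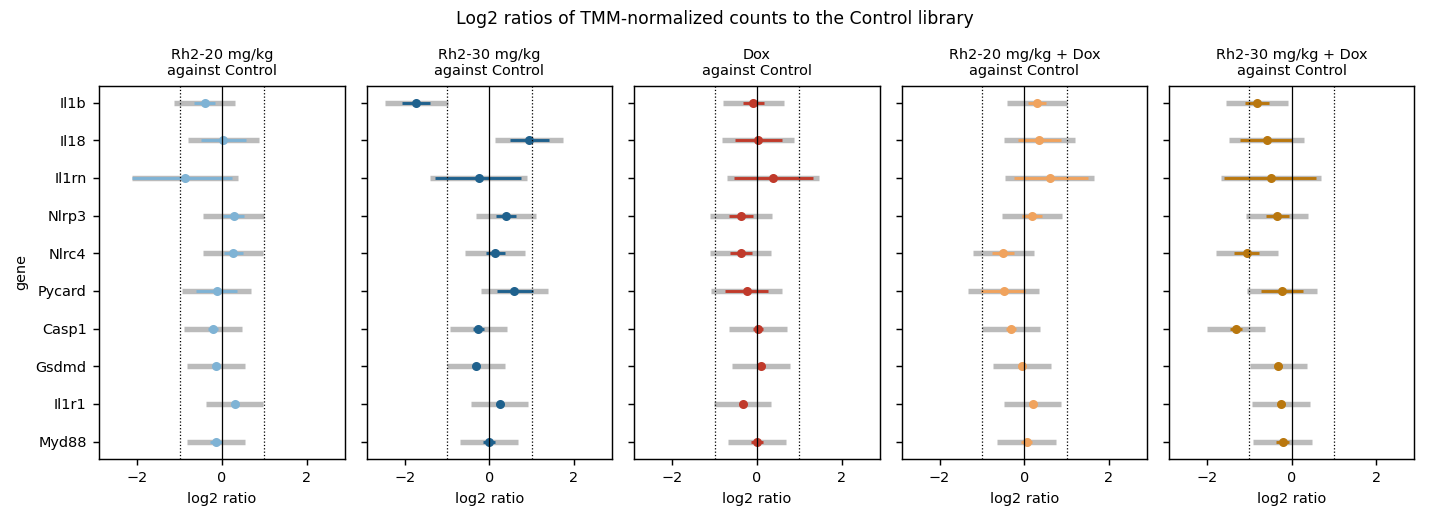
Log2 ratio of TMM-normalized counts to the Control library (x axis) for the 10 genes (y axis), with 1 panel for each treated library. Points are ratios, coloured lines 95% counting intervals, grey bars intervals that add the common dispersion and dotted lines 2-fold. Il1b in Rh2-30 and Casp1 and Nlrc4 in Rh2-30 + Dox lie past the lower line, and every point of the last panel lies below 0.

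The factors that several libraries share could be tested across all genes with edgeR's quasi-likelihood test, in which libraries of different Rh2 doses stand in for replicates. None of the 10 genes was called for Dox (3 libraries against 3, 0.0273% of tested genes called), for Rh2 (4 against 2, 0%) or for the difference of the Dox effect between libraries with and without Rh2 (0%). At an unadjusted p under 0.05 the counts were 1 (Nlrc4, 10.1% of tested genes), 0 (8.74%) and 0 (2.71%). DESeq2's Wald test also called 0 of the 10 in each, where it called 423, 247 and 38 of all genes it tested. In edgeR's test the adjusted p of the 10 genes ran from 0.344 to 0.999 for Dox. The lowest was 0.572 for Rh2 and 0.988 for the difference of the Dox effect. Groups did not overlap for 2 of the 10 genes by Dox (Nlrc4 and Pycard, 17% of all tested genes) and for 2 by Rh2 (Casp1 and Gsdmd, 19%).
The sign of the Dox difference was the same at all 3 Rh2 doses for 5 of the 10 genes, against 33.5% of tested genes. Nlrp3, Nlrc4, Pycard and Il1r1 were lower with Dox each time. Gsdmd was higher by log2 ratios of 0.10, 0.09 and 0.0024, of which the last turned to -0.15 with FPKM plus 0.1. The log2 ratios of Il18 were 0.04, 0.33 and -1.53 at 0, 20 and 30 mg/kg, those of Il1b -0.08, 0.71 and 0.91, and those of Casp1 0.02, -0.08 and -1.05. The difference between these values was tested only with both Rh2 doses pooled.

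**Figure D4:**
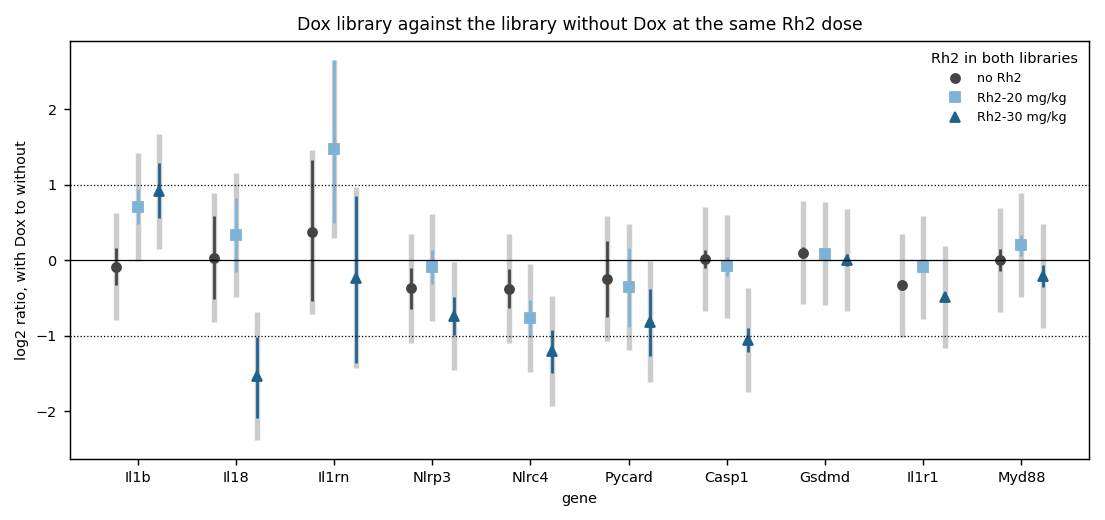
Log2 ratio of each library with Dox to the library without it at the same Rh2 dose (y axis) for the 10 genes (x axis). Points are ratios, coloured lines 95% counting intervals, grey bars intervals that add the common dispersion and dotted lines 2-fold. Il18, Casp1 and Nlrc4 lie past the lower line at Rh2-30, and Il1rn past the upper line at Rh2-20.

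The rest of the pathway was followed in 6 lists with 74 further genes, of which 70 were in the table and 65 were tested. None of the 65 was called in edgeR's quasi-likelihood test for Dox, Rh2 or their interaction. At an unadjusted p under 0.05, 15 differed with Dox (2 higher, 13 lower) and 8 with Rh2 (3 higher, 5 lower), where all tested genes gave 10.1% and 8.74%. These shares are for both directions together. The 13 lower with Dox included 5 of 18 target genes of IL-1 and NF-kB and 4 of 11 sensors. The sensors were Nlrp1b, Naip2, Naip5 and Naip6. The Naip genes are related in sequence, so the split of reads among them is uncertain and they are not separate observations. DESeq2's Wald test called Nfkb2 (log2 difference -0.40, SE 0.10, adjusted p = 0.00479) and Il1rl2 (-0.44, SE 0.13, adjusted p = 0.0267) for Dox, and Nfkbia (0.54, SE 0.12, adjusted p = 0.00171) for Rh2. Nfkb2 encodes an NF-kB subunit, Il1rl2 the receptor for IL-36, and Nfkbia the inhibitor IκBα, itself a target of NF-kB.

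The rule for naming target genes, past 2-fold the same way in at least 3 of the 5 treated libraries with at least 50 counts in 1, gave Hp, Saa3 and Cxcl1. Hp, which encodes the haemoglobin-binding acute-phase protein haptoglobin, had 114 counts in Control, 478 in Rh2-20, 1144 in Rh2-30, 578 in Dox, 588 in Rh2-20 + Dox and 203 in Rh2-30 + Dox, so it was highest in the library where Il1b was lowest. Saa3, an acute-phase serum amyloid, had 9 counts in Control and 26 to 76 in the 5 treated libraries. Cxcl1, a chemokine that attracts neutrophils, had 446 counts in Control, 392 in Rh2-20, 286 in Rh2-30, 162 in Dox, 242 in Rh2-20 + Dox and 116 in Rh2-30 + Dox. Every library with Dox had less Cxcl1 than every library without it, by a log2 difference of -1.11 (SE 0.31, adjusted p = 0.344, edgeR). Libraries with and without Dox did not overlap for 17% of all tested genes, in either direction.

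The other IL-1 ligand and the classical IL-1 target Il6 had few counts. Il1a, which encodes IL-1α, had 7 counts in Control, 27 in Rh2-20, 10 in Rh2-30, 15 in Dox, 17 in Rh2-20 + Dox and 3 in Rh2-30 + Dox. Il6 had 34 counts in Control, 23 in Rh2-20, 31 in Rh2-30, 10 in Dox, 18 in Rh2-20 + Dox and 0 in Rh2-30 + Dox. Taking 3 counts per library as the limit, the log2 ratio of Il6 in that library to Control was -3.56 or lower.

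In pairs against Control, the 65 further genes past 2-fold were 5 higher and 0 lower in Rh2-20, 6 and 0 in Rh2-30, 3 and 4 in Dox, 6 and 2 in Rh2-20 + Dox and 4 and 12 in Rh2-30 + Dox. Of all tested genes, 3.34% were past 2-fold higher in Rh2-20, 8.48% in Rh2-30, 5.43% in Dox and 5.13% in Rh2-20 + Dox. These 4 libraries had 1.63% to 3.62% lower. In Rh2-30 + Dox 6.85% of all tested genes were lower and 4.08% higher, so that library had the most lower genes among all tested genes as well. The median log2 ratio of the 65 genes there was -0.34. Among them was Casp4, singled out after its values were seen, which encodes the sensor caspase-11 that also cuts gasdermin D. It had 1667 counts in Control, 1714 in Rh2-20, 1686 in Rh2-30, 1080 in Dox, 1619 in Rh2-20 + Dox and 760 in Rh2-30 + Dox, so this library was lowest, as for Casp1. Naip5 and Naip6, which encode flagellin-binding partners of NLRC4, were also past 2-fold lower there, but their sequences are near-identical and the split of reads between them is uncertain.

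**Figure D5:**
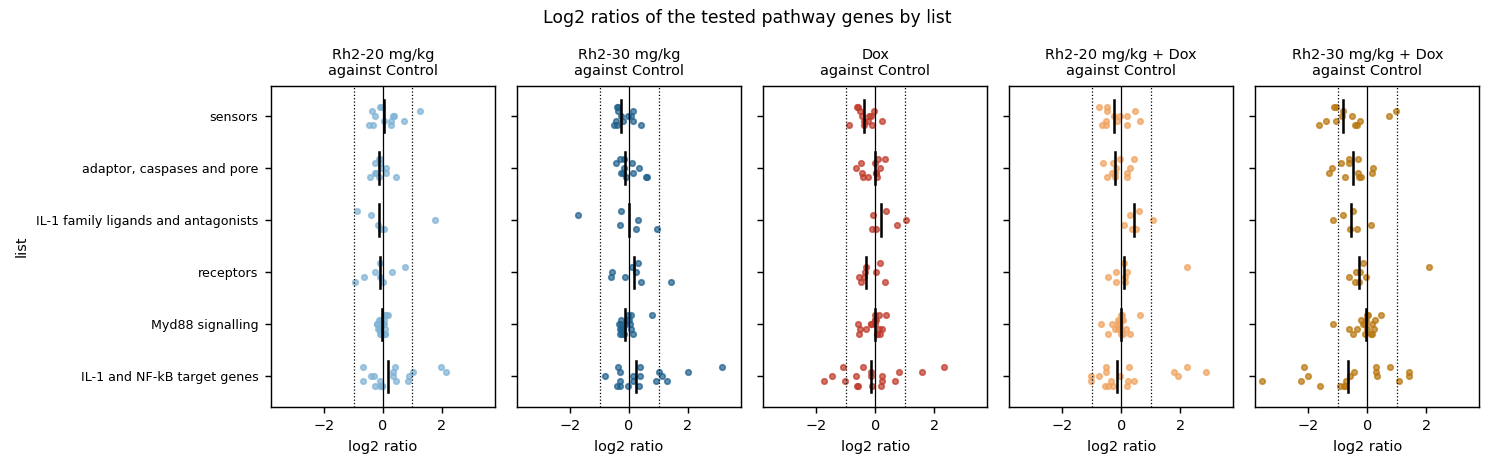
Log2 ratio to the Control library (x axis) of the tested pathway genes in 6 lists (y axis), the 10 genes included, with 1 panel for each treated library. Points are genes, black bars list medians and dotted lines 2-fold, and Il6 in Rh2-30 + Dox is drawn at its limit of 3 counts. The target genes spread furthest, and the medians of all 6 lists lie below 0 in Rh2-30 + Dox.

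The decoy receptor gene Il1r2, also singled out after its values were seen, binds IL-1 without signalling and is known from neutrophils. It had 26 counts in Control, 48 in Rh2-20, 32 in Rh2-30, 21 in Dox, 136 in Rh2-20 + Dox and 117 in Rh2-30 + Dox. The FPKM ratio of Il1r1 to Il1r2 was 71.5 in Control, 42.2 in Rh2-20, 64.4 in Rh2-30 and 62.4 in Dox, but 12.2 in Rh2-20 + Dox and 8.87 in Rh2-30 + Dox. The Dox effect on Il1r2 differed between libraries with and without Rh2 by a log2 value of 2.02 (SE 0.70), with an adjusted p of 0.988 in edgeR's test. Neutrophil markers summed to 47.5 CPM in Rh2-20 + Dox and 27.8 CPM in Rh2-30 + Dox, against 16.0 CPM in Control, 17.4 CPM in Rh2-30, 18.3 CPM in Dox and 30.8 CPM in Rh2-20, and their part in these values was not tested.

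For the 3 genes with the largest SD of log2 CPM and a mean of at least 50 counts, the genes most like them over the 6 libraries were found among 13961 genes that averaged 100 counts or more. Il1b was most like Cfap69 (Pearson r = 0.98) and Zfp334 (r = 0.98), and 71 genes had an r above 0.9. Il18 was most like Dpt (r = 0.998) and Clec4a1 (r = 0.996), with 419 genes above 0.9, and Nlrc4 most like Dnmt1 (r = 0.998) and E2f1 (r = 0.995), with 333. With 6 points that share depth and composition, these values are a description.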

How the data were processed

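RNA from hearts of 6 groups of mice was sequenced, 1 library a group, with 5 hearts pooled per library, and samples were matched to groups by their labels. The authors trimmed the reads (Trimmomatic), aligned them to mm10 with HISAT2 2.1.0 and estimated gene abundance with StringTie 2.1.3b. The deposited read counts are whole numbers per gene without normalization. The authors' FPKM values are per kilobase of transcript, scaled to mapped fragments, and the authors' TPM values were not used here. Reads of near-identical genes were split by the authors' tools, and library strandedness is not given in the sources used here.

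The tools were edgeR 4.0.16 (with limma 3.58.1) and, for alternatives, DESeq2 1.42.0, run in R 4.3.3, with matplotlib 3.10.9 for figures. Genes averaging 10 counts or more per library were kept and TMM-normalized. For pairs of libraries, log2 ratios used a prior count of 0.5, and a gene was called past 2-fold with no test. The 95% counting intervals are exact conditional binomial ones and cover counting error only. The wider intervals add a common dispersion of 0.0285, estimated robustly over the 6 libraries taken as 1 group, so it includes differences between treatments. The two-sided quasi-likelihood test of edgeR, adjusted by Benjamini-Hochberg over all tested genes at 0.05, was run for 3 contrasts: Dox against none, Rh2 against none with Dox as a term, and their interaction. The procedures were tested on simulated data. For the quasi-likelihood test these had a lower dispersion than the common dispersion of the 6 libraries, so the power of the reported tests was not measured. Gene positions come from RefSeq on GRCm38.p6. The 10 genes, the pathway and marker lists and the rule for named genes were chosen with earlier results of these data known. The rule named all 10 genes, further pathway genes with an adjusted p under 0.05 or past 2-fold the same way in at least 3 of 5 treated libraries with at least 50 counts (at most 8), Il1a and Il6. Alternatives were DESeq2's size factors and Wald test, other filters and prior counts, FPKM with offsets of 1 and 0.1, Rh2 dose as a term, other dispersions and each library left out in turn. Marker lists for skeletal muscle (296 to 517 CPM) and epidermis (0.426 to 1.59 CPM) were checked too.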

Additional observations from a re-analysis of the deposited data

How the results depend on the processing

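No ratio past 2-fold changed sign under the alternatives run. Of the 90 ratios, 5 changed sign with FPKM values under either offset and none under the other alternatives. These were all within 0.0835 of 0: Myd88 in Rh2-30 against Control, Gsdmd in Rh2-20 + Dox against Control and in Rh2-30 + Dox against Rh2-30, and Pycard and Il1r1 in Rh2-30 + Dox against Dox. Of the 30 tested differences, none of them called, 7 changed sign under at least 1 alternative. A prior count of 2, no filter on low counts and the size factors of DESeq2 changed no count of genes past 2-fold and moved none of the 90 ratios by more than their intervals. FPKM values with an offset of 1, which shrinks ratios of genes near that level, moved 27 of the 90 ratios and an offset of 0.1 moved 12. Not all of these shrank. The log2 ratio of Il1r1 in Rh2-20 against Control rose from 0.30 to 0.44 with an offset of 1 and to 0.48 with 0.1. With an offset of 1 the genes past 2-fold numbered 0 in Rh2-30 against Control, 1 in Rh2-30 + Dox against Control, 0 in Rh2-20 + Dox against Rh2-20 and 0 in Rh2-30 + Dox against Rh2-30. With 0.1 the first 3 of these counts were 2, 1 and 0. In the tests, 0 of the 10 genes were called under every alternative, including DESeq2's Wald test and each library left out, and their lowest adjusted p was 0.0862, in the Wald test for Dox. Rh2 dose as a term, which pairs each library with Dox with the one at the same Rh2 dose, gave 0 of the 10 genes and 0 of all genes called, 1598 of these at an unadjusted p under 0.05. For the interaction, libraries were not left out in turn. Over all genes, edgeR called 5 for Dox, 14 without Rh2-30 + Dox, 3 without Rh2-30 and 0 without any 1 of the other 4, and the Wald test 423. For Rh2 edgeR called 0 (1602 at an unadjusted p under 0.05) and the Wald test 247, and for the interaction 0 (497) and 38. The dispersion decides the wider intervals: 15 of 90 lay off 0 as reported, 23 at a biological coefficient of variation of 0.1 and 1 at 0.4 (Il1b in Rh2-30 against Control). A dispersion of 0.0865, estimated without down-weighting variable genes and added after seeing the data, left 4: that ratio, Casp1 in Rh2-30 + Dox against Control and against Dox, and Il18 in Rh2-30 + Dox against Rh2-30. Depth limits Il1rn, Il1a and Il6, with at most 34 counts.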

Other observations

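Nfkbia, singled out after its values were seen, had the lowest adjusted p of the pathway for Rh2 in DESeq2's Wald test. It had 3945 counts in Control and 2959 in Dox, against 5650 in Rh2-20, 5807 in Rh2-30, 5198 in Rh2-20 + Dox and 5067 in Rh2-30 + Dox. The 4 libraries with Rh2 (56.7 to 62.7 CPM) did not overlap the 2 without (35.2 and 47.4 CPM). The same held for 19% of all tested genes. In edgeR's quasi-likelihood test the log2 difference was 0.55 (SE 0.10) with an adjusted p of 0.567.

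Lcn2, the iron-binding lipocalin of neutrophils and an NF-kB target, had 470 counts in Rh2-20 + Dox and 306 in Rh2-30 + Dox, against 111 in Control, 131 in Dox, 137 in Rh2-30 and 224 in Rh2-20. The 2 highest libraries are those where Il1r2 was highest. Il18bp, which encodes the soluble inhibitor of IL-18, had 1344 counts in Dox and 741 to 949 in the other 5 libraries. Both were singled out after their values were seen.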
